A study of Mus musculus with 2 samples.

Results

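Interleukins are secreted proteins that carry signals between leukocytes, keratinocytes and fibroblasts, and each acts through a receptor built from 1 or more chains on the target cell. In mouse back skin, 63 genes of this family had more than 3 counts in at least 1 of 2 libraries, out of 83 gene symbols that begin with Il and a digit and 24421 symbols in all. They comprised 22 ligands, 4 secreted inhibitors, 36 receptor chains and Il1bos, a transcript antisense to Il1b that is neither. A further 20 symbols stayed at 3 counts or fewer in both libraries, among them 15 ligands. The rule for these 63 used gene names and this count only.

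The control library came from non-stretched whole-layer skin of wild type C57BL6/J mice, and the other from skin held under 33% strain for 5 days. The mice were 8-week-old females in telogen, the resting phase of the hair cycle, and the strain of the glued device was raised a little each day. The labels do not say whether the control skin carried a device or how many animals gave each library. The comparison asks which immune signals differ in stretched skin, with 1 library per condition and so without a replicate check or a p-value. The control library held 14152379 counts and the stretched one 11648655, and each level is given in CPM, the count scaled to an equal library total.

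The ratio of CPM in stretched skin to control skin is given on the log2 scale. Its 95% interval (Clopper-Pearson, exact) covers counting error only and compares these libraries, not the conditions. Counts of 3 or fewer were set to 3 before a ratio was taken, so that 8 of the 63 values rest on this floor, which equals 0.212 CPM in control skin against 0.258 CPM in stretched skin. Over the 16255 symbols above the floor the median log2 ratio was -0.12, and TMM scaling would add 0.10 to every value.

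The receptors fall into a few structural groups. IL-1 family cytokines, which include IL-18, IL-33 and the IL-36 proteins, act through paired chains that recruit the adaptor Myd88 and are prominent in the epidermis as alarm signals. Cytokines of the common gamma chain, IL-6 and IL-10 groups act through Janus kinases, and the IL-17 group acts mainly on epithelium and stroma through the adaptor Traf3ip2.

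The start sites of 4 genes are shown because they form 2 nearby pairs on which the results turn. Il1a and Il1b, the founding ligands of the IL-1 family, lie near each other on chromosome 2 and differed in opposite directions. Il4ra and Il21r, receptor chains that pair with the common gamma chain, lie near each other on chromosome 7 and were both higher in stretched skin. Each sequence runs from 250 bases before to 50 bases after the start site in RefSeq on GRCm38.p6, with matches to the searched motifs in capitals. The windows lie at chr2:129309923-129310222 for Il1a and chr2:129371090-129371389 for Il1b, both on the minus strand. Those of the other pair lie at chr7:125552021-125552320 for Il4ra and chr7:125603179-125603478 for Il21r, on the plus strand.
Il1a: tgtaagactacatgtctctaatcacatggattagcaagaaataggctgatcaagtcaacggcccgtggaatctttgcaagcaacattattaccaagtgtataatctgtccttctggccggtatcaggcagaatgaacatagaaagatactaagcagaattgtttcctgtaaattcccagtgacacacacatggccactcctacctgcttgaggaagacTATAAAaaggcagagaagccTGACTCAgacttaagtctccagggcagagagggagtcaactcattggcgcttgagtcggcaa
Il1b: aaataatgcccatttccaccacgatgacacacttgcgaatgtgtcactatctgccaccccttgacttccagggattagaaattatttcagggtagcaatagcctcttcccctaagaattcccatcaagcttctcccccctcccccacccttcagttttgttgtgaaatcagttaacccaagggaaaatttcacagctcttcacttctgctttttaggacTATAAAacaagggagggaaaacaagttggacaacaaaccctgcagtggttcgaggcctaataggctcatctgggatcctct
Il4ra: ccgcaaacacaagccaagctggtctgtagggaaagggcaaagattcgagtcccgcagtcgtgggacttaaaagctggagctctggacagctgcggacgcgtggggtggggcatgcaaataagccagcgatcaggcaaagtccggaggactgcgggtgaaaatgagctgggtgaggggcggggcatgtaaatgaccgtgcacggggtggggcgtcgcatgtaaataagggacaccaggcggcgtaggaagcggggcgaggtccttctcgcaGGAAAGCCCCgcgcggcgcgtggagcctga
Il21r: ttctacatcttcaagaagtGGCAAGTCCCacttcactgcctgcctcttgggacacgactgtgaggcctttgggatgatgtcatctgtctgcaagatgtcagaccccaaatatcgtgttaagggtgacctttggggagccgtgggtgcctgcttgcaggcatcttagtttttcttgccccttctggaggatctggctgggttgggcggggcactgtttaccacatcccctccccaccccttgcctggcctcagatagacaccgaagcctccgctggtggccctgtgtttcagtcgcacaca

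The motifs searched on both strands were AP-1 (TGANTCA), the STAT element GAS (TTCNNNGAA), kappa B (GGGNNTT, then N and CC) and the TATA box (TATAAA), and none of them contains another. Il1a and Il1b each held a TATA match just before the start site, which 13.6% of 32851 windows of all genes also held. Il1a alone of the pair held an AP-1 match, present in 7.81% of windows. Il4ra and Il21r each held a kappa B match on the minus strand, present in 4.79% of windows. RefSeq windows were found for 48 of the 63 genes, and of their 62 windows 12 held AP-1, 10 held GAS (8.30% of all windows), 11 held kappa B and 8 held TATA. These letters describe the windows and are not measured binding sites.

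Of the 63 genes, 17 were at least 2-fold higher in stretched skin, a share of 27.0% against 6.32% of all symbols tested. Another 4 were at least 2-fold lower, or 6.35% against 5.47% of all symbols. With TMM scaling the numbers were 21 and 2, and with median of ratios 22 and 2. Where both libraries together held 20 counts or more, 11 of 52 genes were at least 2-fold higher (4.98% of all such symbols) and 4 at least 2-fold lower (5.02%). The interval lay wholly above 0 for 25 of the 63 genes, where 18.1% of all symbols did so, and wholly below 0 for 12, where 33.5% did so. The share at least 2-fold higher was 27.8% among receptor chains and 27.3% among ligands, and the 4 genes at least 2-fold lower were all classed here as ligands. These shares include Il9r, Il5ra, Il10 and Il24, which passed the count rule in stretched skin alone.

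**Figure D1:**
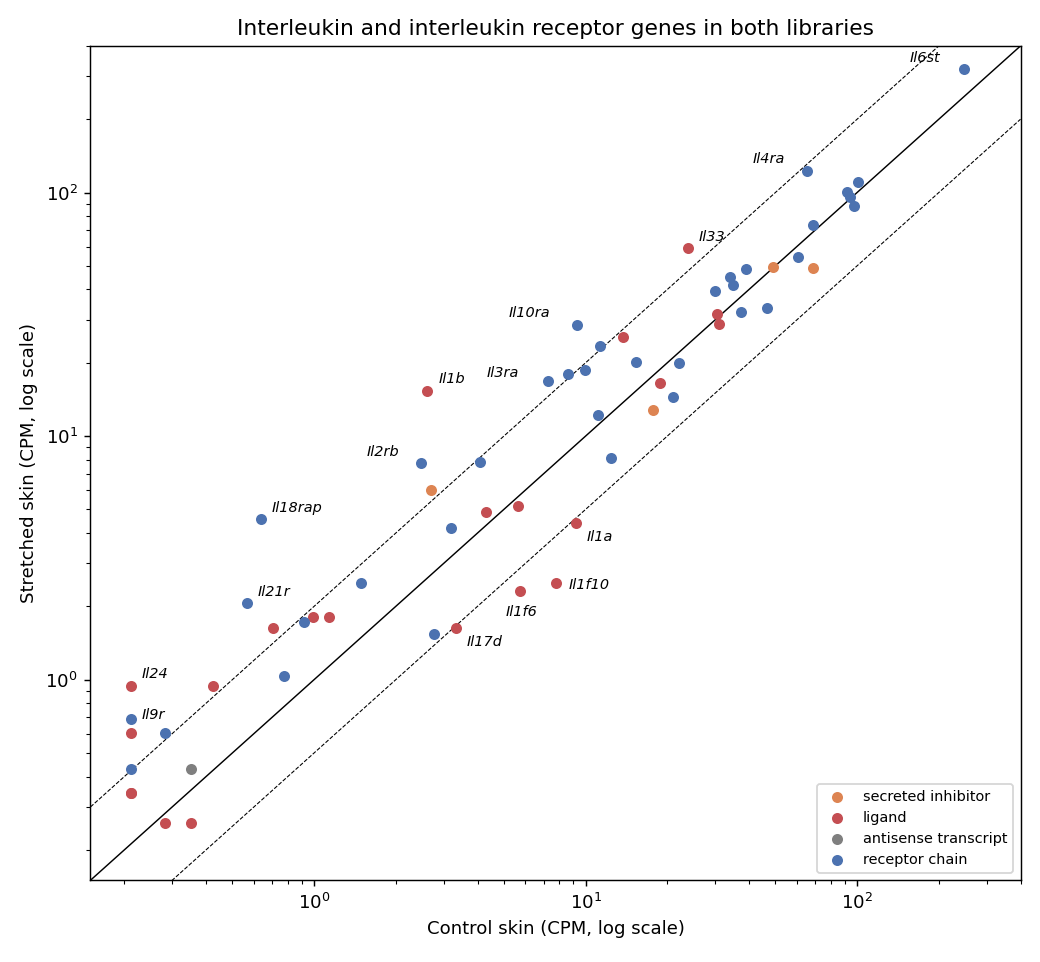
CPM in control skin (horizontal, log scale) against stretched skin (vertical, log scale) for the 63 genes, 1 point per gene, with counts of 3 or fewer drawn at 3. The solid line marks equal levels and the dashed lines a 2-fold difference, and 17 points lie on or above the upper dashed line and 4 on or below the lower one.

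Receptor chains and ligands had like medians but different spreads. Of the 36 receptor chains, 28 were higher and 8 lower in stretched skin, with a median log2 ratio of 0.40 and values from -0.83 to 2.84. None of them was 2-fold lower, and 10 were at least 2-fold higher, or 7 of 33 with at least 20 counts per gene. Among the 10 are Il9r and Il5ra, which passed the count rule in stretched skin alone, so that the rule fixed their direction. The 22 ligands went both ways, with 13 higher and 9 lower, a median of 0.43 and values from -1.64 to 2.56, and 6 were at least 2-fold higher and 4 at least 2-fold lower. Il10 and Il24, among the 6, passed the count rule in stretched skin alone, so that the rule fixed their direction too. The median of ligands exceeded that of receptor chains by 0.03, and this order turned with at least 20 counts per gene, where the median was 0.06 for 15 ligands and 0.39 for 33 receptor chains. The difference was also below 0 with 1 CPM added (-0.08), with no filter on low counts (-0.17) and without members that share stretches with other genes (-0.22). Of the 22 ligands, 4 passed the count rule in stretched skin alone and 2 in control skin alone, so that part of their spread is fixed by the rule.

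Per kilobase of exon (FPKM), receptor chains made up most of the signal. Their summed level was 258 FPKM in control skin against 296 FPKM in stretched skin, while that of the ligands was 101 and 103 FPKM. Il17rc, a signaling chain for IL-17A and IL-17F, had the highest level of the family in both libraries, at 34.4 FPKM in control skin against 37.6 FPKM in stretched skin, although its counting interval overlapped that of Il1r2 in control skin. It was followed in control skin by Il1r2 (31.7 FPKM), a decoy receptor for IL-1, Il13ra1 (27.0 FPKM), Il20rb (23.1 FPKM) and Il6st (22.2 FPKM). In control skin the counting intervals of Il20rb, Il6st and Il11ra1 overlapped, so their order is not set.

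**Figure D2:**
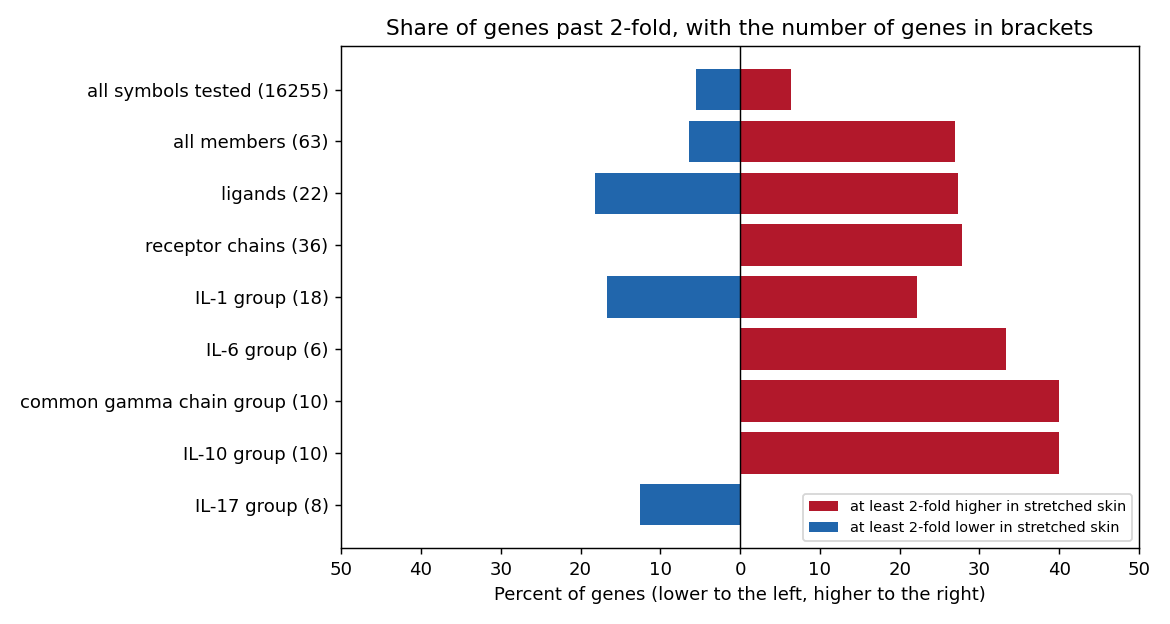
Percent of genes at least 2-fold higher (right) or at least 2-fold lower (left) in stretched skin, for all symbols tested, all 63 members, ligands, receptor chains and 5 groups, with the number of genes in brackets. Receptor chains, the IL-6, the common gamma chain and the IL-10 groups have no bar to the left, and the IL-17 group has none to the right. In these groups, which hold few genes, an absent bar is near the share of all symbols (6.32% higher and 5.47% lower).

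In the IL-1 group, Il1b and Il33 were higher in stretched skin and Il1a, Il1f6 and Il1f10 were lower. Il1b encodes IL-1beta, which leukocytes make as an inactive precursor. It had 37 counts (2.61 CPM) in control skin against 179 counts (15.4 CPM) in stretched skin, 5.88-fold higher with a log2 ratio of 2.56 (interval 2.04 to 3.11). Il1a encodes IL-1alpha, which keratinocytes store. It had 130 counts (9.19 CPM) in control skin against 51 counts (4.38 CPM) in stretched skin, a log2 ratio of -1.07 (interval -1.57 to -0.59). Per length, Il1a was the higher of the pair in control skin, at 4.65 FPKM against 1.37 FPKM, and Il1b was the higher in stretched skin, at 8.06 FPKM against 2.22 FPKM. With TMM scaling the log2 ratio of Il1a was -0.97, short of 2-fold.

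Il33, an alarm signal held in the nucleus of stromal and epithelial cells, had 338 counts in control skin against 690 in stretched skin, a log2 ratio of 1.31 (interval 1.12 to 1.5). The gene of its receptor ST2, Il1rl1, had 141 and 217 counts, a log2 ratio of 0.90 (interval 0.59 to 1.22), so that ligand and receptor were both higher. Il18 (266 and 192 counts) had an interval that included 0 (-0.46 to 0.08). The inhibitor of IL-18, Il18bp, had 38 and 70 counts, a log2 ratio of 1.16 (interval 0.57 to 1.77), and its receptor chain Il18rap 9 and 53 counts, a log2 ratio of 2.84 (interval 1.81 to 4.04). With counts of 3 or fewer set to 3, Il18rap had the largest ratio of the 63 genes, but its level was low, at 0.09 FPKM in control skin against 0.67 FPKM in stretched skin. With 1 CPM added its log2 ratio was 1.76, below that of Il1b at 2.18, and the counting intervals of these genes overlapped.

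In the IL-36 branch, which keratinocytes express, each ligand and antagonist gene had a ratio below 0 with total counts as the scale. The receptor chain Il1rl2 had a ratio above 0. Il1f6 encodes IL-36alpha and had 81 counts in control skin against 27 in stretched skin, a log2 ratio of -1.30 (interval -1.99 to -0.66). Il1f10, the gene of IL-38, had 110 and 29 counts, a log2 ratio of -1.64 (interval -2.29 to -1.04), the lowest of the 63 genes with counts of 3 or fewer set to 3. For Il1f8 (IL-36beta, 80 and 60 counts) and Il1f9 (IL-36gamma, 440 and 337 counts) the intervals included 0. Il1f5, the IL-36 receptor antagonist, was lower at 978 and 569 counts (log2 ratio -0.50, interval -0.65 to -0.35), whereas Il1rl2, the receptor chain it blocks, had 496 and 487 counts (0.25, interval 0.07 to 0.44).

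The antagonist Il1rn, which blocks the IL-1 receptor, had 696 counts in control skin against 578 in stretched skin, a log2 ratio of 0.01 (interval -0.15 to 0.17). Against its level, Il1b was at 1.37 FPKM beside 8.89 FPKM of Il1rn in control skin and at 8.06 FPKM beside 8.96 FPKM in stretched skin. The receptor Il1r1 had an interval that included 0 (-0.03 to 0.23), and the shared accessory chain Il1rap was at -0.21 (interval -0.41 to -0.02), an interval that included 0 with TMM scaling (-0.30 to 0.08). The interval of Il1r1 lay above 0 with TMM scaling (0.07 to 0.34), and that of Il1r2, just below 0 at -0.15, included 0 (-0.20 to 0.10). Over all 18 genes of the group the median was -0.05, which turned to 0.06 with TMM scaling, with 6 intervals above 0 and 6 below, or 33.3% each, against 18.1% and 33.5% of all symbols.

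Most of these genes lie in clusters on 2 chromosomes. The 8 ligand and antagonist genes on chromosome 2 (mm10) run from Il1f8 at 24153161 to Il1rn, which ends at 24351494, with Il1a (129299610 to 129309972) and Il1b (129364570 to 129371139) farther along. Only Il1b of the 8 had an interval wholly above 0, and 4 had intervals wholly below 0, beside 18.1% and 33.5% of all symbols. On chromosome 1 the 6 receptor genes extend from Il1r2, which starts at 40074079, to Il18rap, which ends at 40551705. Their log2 ratios were -0.15 for Il1r2, 0.10 for Il1r1, 0.25 for Il1rl2, 0.90 for Il1rl1, 0.40 for Il18r1 and 2.84 for Il18rap.

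**Figure D3:**
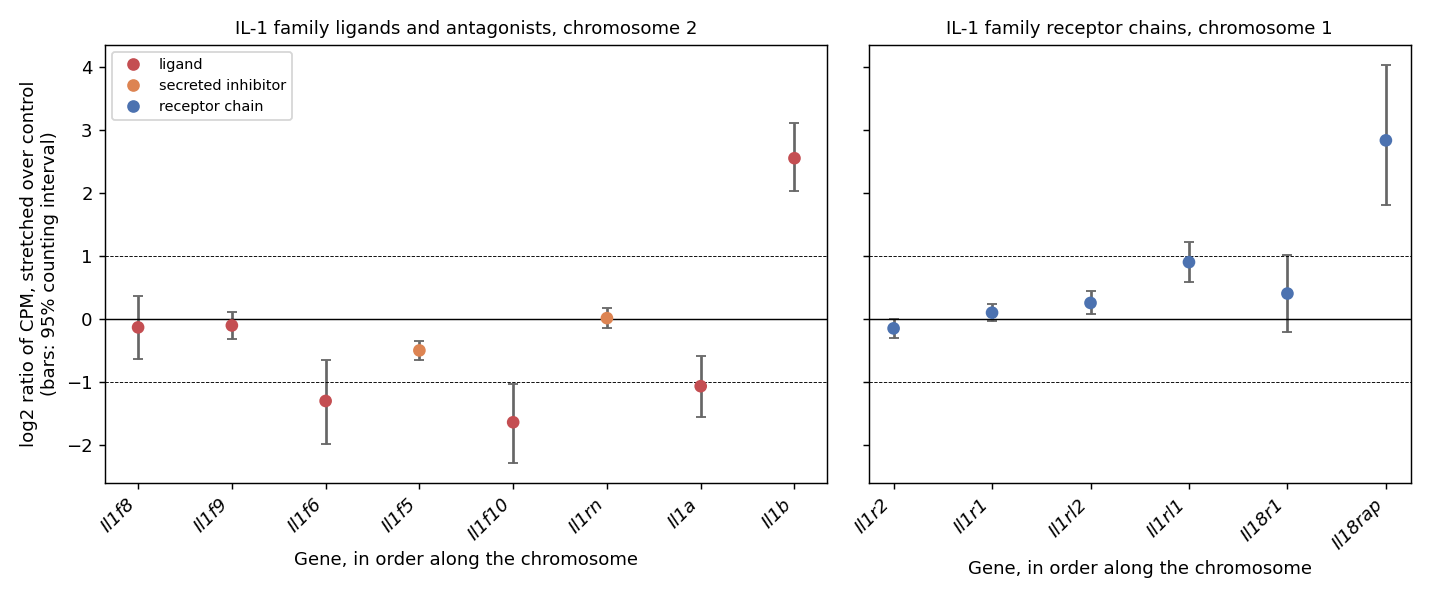
Log2 ratio of CPM, stretched over control (vertical), for the IL-1 family genes of chromosome 2 (left) and chromosome 1 (right) in their order along the chromosome, evenly spaced. Bars are 95% counting intervals and dashed lines mark 2-fold, and Il1b at 2.56 and Il18rap at 2.84 stand above the other genes of their clusters.

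In the common gamma chain group, all 10 genes had a ratio above 0, among them 8 receptor chains and 2 ligands. Of the 8 receptor chains, 7 had an interval wholly above 0, where 18.1% of all symbols did so, with a median log2 ratio of 0.99. One of the 7, Il9r, could enter only through its count in stretched skin. Il4ra, the chain that binds IL-4 and also serves IL-13, had 924 counts in control skin against 1432 in stretched skin, a log2 ratio of 0.91 (interval 0.79 to 1.03). Il2rg, the common gamma chain itself, had 160 and 272 counts, a log2 ratio of 1.05 (interval 0.76 to 1.34). It shares 25.9% of its 76-base stretches with the annotated gene Gm20489, which makes its value less certain.

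Il2rb, the beta chain for IL-2 and IL-15, had 35 counts in control skin against 90 in stretched skin, a log2 ratio of 1.64 (interval 1.07 to 2.25). Il21r, the receptor of IL-21, had 8 and 24 counts, a log2 ratio of 1.87 (interval 0.66 to 3.23). Il7r, the receptor of IL-7, and Il15ra, the chain that presents IL-15, were at 0.93 (interval 0.44 to 1.43) and 0.39 (interval 0.12 to 0.66). Il2ra had an interval that included 0 (-0.18 to 2.03). Il9r was at 0 in control skin with 8 counts under stretch, which puts it at least 3.24-fold higher when the floor of 3 counts stands in for the 0. The lower end of its counting interval was 1.05 on the log2 scale, and with 1 CPM added to both values the log2 ratio was 0.75.

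Of the interleukins that act through the common gamma chain, Il15 and Il7 had more than 3 counts in a library. Il7 had 16 counts in control skin against 21 in stretched skin and Il15 had 61 and 57, both with intervals that included 0. Il4, which drives alternative activation of macrophages, had 0 counts in control skin against 1 in stretched skin, and Il13 had 0 in both. The floor of 3 counts, taken here as the limit for a count of 0, equals 0.212 CPM in control skin or 0.258 CPM in stretched skin. Il2, Il9 and Il21 were at 0 in both libraries, so for these cytokines no difference was detectable at this depth.

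Il13ra1, which joins Il4ra in the receptor for IL-4 and IL-13 outside the blood lineages, had 1421 counts in control skin against 1287 in stretched skin, a log2 ratio of 0.14 (interval 0.03 to 0.25). Il13ra2, the decoy receptor for IL-13, had 11 and 12 counts. Il3ra, the alpha chain for IL-3, had 103 and 196 counts, a log2 ratio of 1.21 (interval 0.86 to 1.57), while Il3 was at 0 in both libraries. Il5ra had 3 and 5 counts, and Il5 had 3 and 2.

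In the IL-6 group all 6 genes had a ratio above 0 with a median of 0.62, and 4 intervals lay above 0, where 18.1% of all symbols did so. Il6st encodes gp130, the signaling chain for IL-6 and IL-11, and held 3494 counts in control skin against 3739 in stretched skin, a log2 ratio of 0.38 (interval 0.31 to 0.45). Il6ra had 553 and 566 counts (0.31, interval 0.14 to 0.49). Il31ra, the receptor chain for the itch cytokine IL-31, had 122 and 209 counts, a log2 ratio of 1.06 (interval 0.73 to 1.39), whereas Il31 was at 0 in both libraries. Il6 had 14 and 21 counts with an interval that included 0 (-0.18 to 1.95), and Il11 had 10 and 19 counts (1.21, interval 0.03 to 2.47). Il11ra1, with 1338 and 1119 counts, shares 35.6% of its stretches with other genes and had an interval that included 0 (-0.09 to 0.14) but lay above 0 with TMM scaling, and its near-identical copy Il11ra2 was listed at 0 in both libraries.

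In the IL-10 group the receptor chains of IL-10 were higher. Of the other receptor chains, only Il22ra1 had an interval that stayed wholly below 0 with TMM scaling. Il10ra, which leukocytes carry, had 132 counts in control skin against 334 in stretched skin, a log2 ratio of 1.62 (interval 1.33 to 1.92), and the broadly expressed Il10rb, which shares 12.8% of its stretches with other genes, had 424 and 458 counts (0.39, interval 0.20 to 0.59). Il22ra1, the epithelial receptor of IL-22, was lower, with 659 and 390 counts (-0.48, interval -0.66 to -0.29). So was the secreted IL-22 inhibitor Il22ra2, with 250 and 149 counts (-0.47, interval -0.77 to -0.17). Il20rb, a chain for IL-19, IL-20 and IL-24, was at -0.15 (interval -0.27 to -0.03), and TMM scaling made it -0.05 with an interval that included 0, while its partner chain Il20ra had an interval that included 0 (-0.20 to 0.47).

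The ligands of the IL-10 group were each under 20 counts over both libraries. Il24, a keratinocyte cytokine of the IL-20 subfamily, had 1 count in control skin against 11 in stretched skin, a log2 ratio of 3.74 as counted (interval 0.96 to 9.17), of 2.16 with the 1 count set to 3 and of 0.86 with 1 CPM added. Il10 had 2 and 7 counts, Il20 had 6 and 11 and Il19 had 5 and 1, with intervals that included 0. The median of the 10 genes of the group was 0.26, or -0.01 with at least 20 counts per gene.

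In the IL-17 group none of 8 genes was 2-fold higher, which is near the 6.32% of all symbols for so few genes. Intervals lay above 0 for 2 and below 0 for 2, or 25% each, against 18.1% and 33.5% of all symbols. The median of the group was -0.14. It was -0.34 with at least 20 counts per gene, -0.57 with no filter on low counts and -0.04 with TMM scaling. Il17d had 47 counts in control skin against 19 in stretched skin, a log2 ratio of -1.03 (interval -1.88 to -0.23), which was -0.92 with TMM scaling. Il17re, the epithelial receptor for IL-17C, had 296 and 168 counts (-0.54, interval -0.82 to -0.26). Il17ra, the shared chain, was at 0.40 (interval 0.22 to 0.59) and Il17rc at 0.13 (interval 0.01 to 0.25), and the intervals of Il17rb and Il17rd included 0. Il17a, Il17c and Il17f each had 1 count in control skin against 0 in stretched skin, and Il25 had 0 and 4. The last ligand of the group, Il17b, had 4 and 2 counts (-0.72 as counted, interval -4.19 to 2.08).

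The remaining genes include the IL-12 group, Il16 and Il34. Il12rb2, a chain of the IL-12 receptor, had 175 counts in control skin against 95 in stretched skin (-0.60, interval -0.98 to -0.23), but it shares 36.9% of its stretches with other genes and 40.0% of its exon bases lie in exons of Serbp1 on the other strand. Il12a had 1 and 4 counts, Il12rb1 had 4 and 7, and Il27ra had 21 and 29, all with intervals that included 0. Il16, a chemoattractant for Cd4-bearing cells, had 195 and 298 counts (0.89, interval 0.63 to 1.16) and shares 14.5% of its stretches with other genes. Il34, a ligand of the Csf1 receptor that keratinocytes make, had 433 and 371 counts with an interval that included 0 (-0.15 to 0.26). Il1bos, the antisense transcript, had 5 counts in each library, too few to bear on Il1b.

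**Figure D4:**
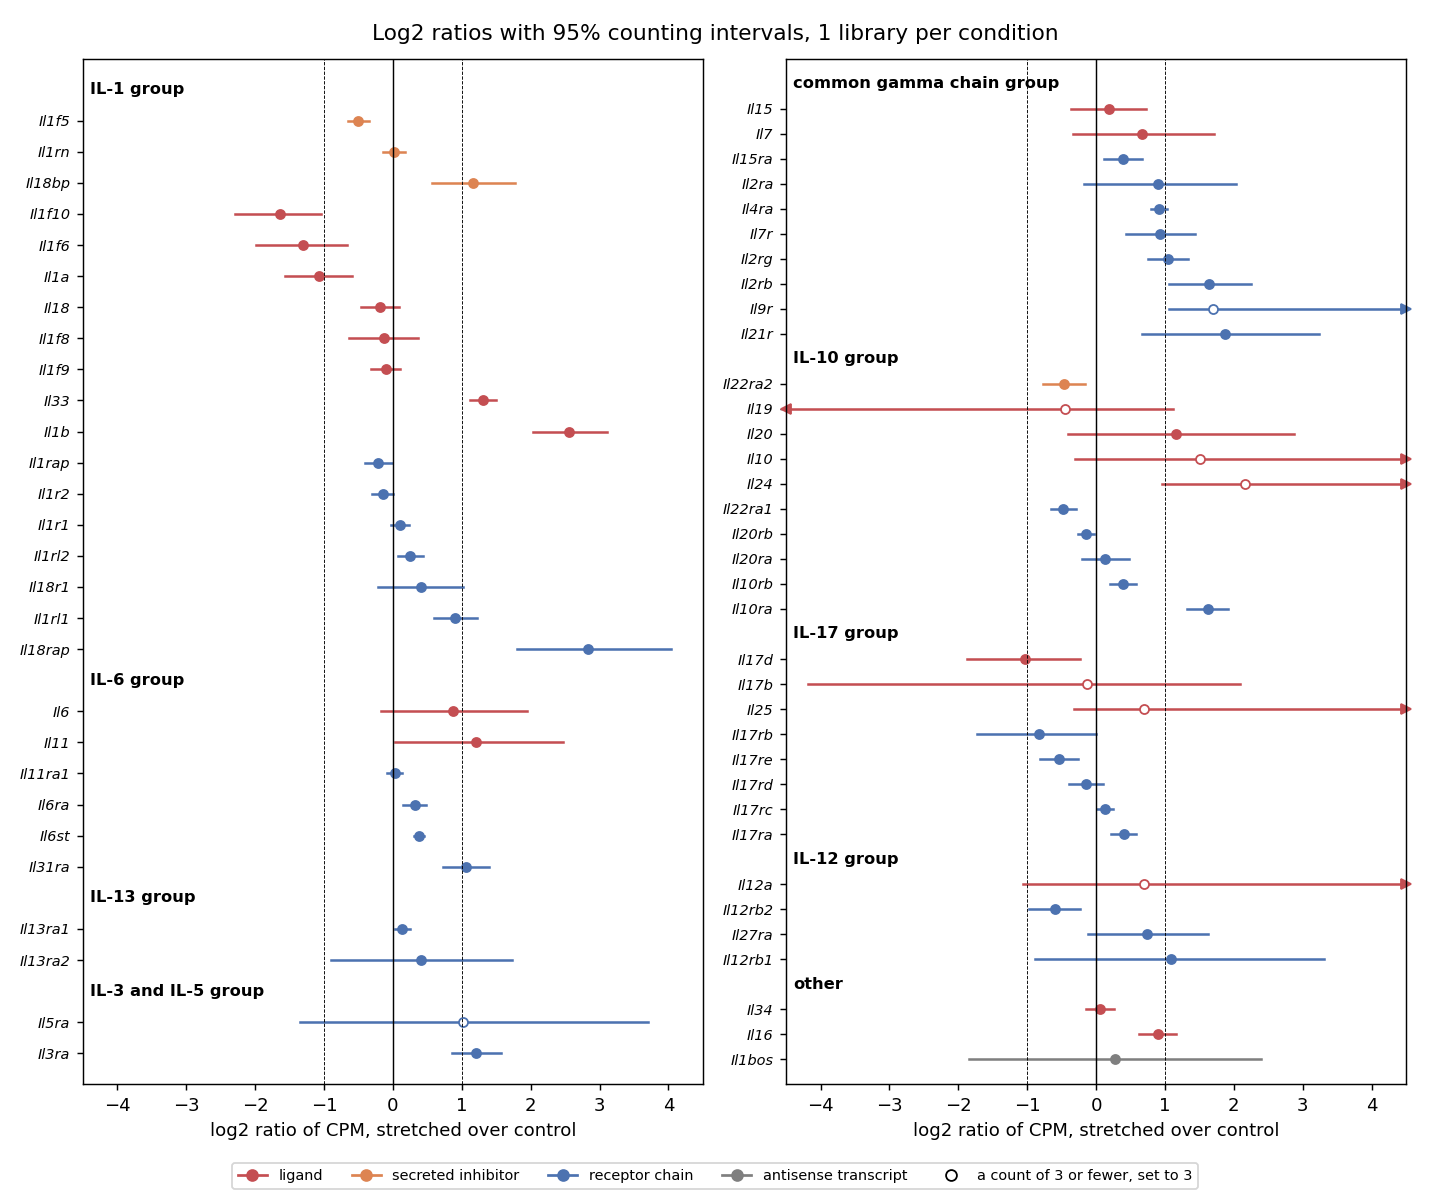
Log2 ratio of CPM, stretched over control (horizontal), for each of the 63 genes by group, with 95% counting intervals as bars, arrows where a bar leaves the axis and dashed lines at 2-fold. Open points had a count of 3 or fewer set to 3. The 8 receptor chains of the common gamma chain group lie between 0.39 and 1.87, and the IL-1 group spreads from -1.64 to 2.84.

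Markers of leukocytes differed between the libraries as well. All 10 macrophage markers were measured, and their summed level was 758 CPM in control skin against 1592 CPM in stretched skin, with 9 intervals above 0, beside 18.1% of all symbols. The 4 neutrophil markers above the floor all had intervals above 0, and the 6 in the table summed to 14.3 and 67.6 CPM, with the granule genes Mpo and Elane at 3 counts or fewer. T cell markers summed to 22.3 and 26.8 CPM, with 1 of 7 intervals above 0 and Cd8a at the floor, and natural killer and innate lymphoid markers to 2.83 and 5.06 CPM. Dendritic cell markers summed to 16.3 and 22.3 CPM, mast cell markers to 260.5 and 360.0 CPM and B cell markers to 0.707 and 1.12 CPM, with Ms4a1 at 0 in both. Of the mast cell markers, Kit was lower at -0.63 (interval -0.86 to -0.41). The part of these markers in the differences of receptor chains was not tested. In bulk skin, more cells of a type and more RNA per cell cannot be told apart.

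Keratinocyte markers summed to 14839 CPM in control skin against 15743 CPM in stretched skin, and 4 of 6 intervals lay above 0 (18.1% of all symbols), with Trp63 lower at -0.49 (interval -0.56 to -0.41). Their part in the lower epidermal ligands was not tested. Endothelial markers summed to 171 and 213 CPM, with Kdr lower at -0.37 (interval -0.59 to -0.15), and fibroblast markers to 26819 and 49616 CPM. Most of the fibroblast sum was Col1a1 and Col1a2, and the median log2 ratio of its 5 markers was 0.25. Adipocyte markers summed to 997 and 641 CPM and skeletal muscle markers to 21760 and 12724 CPM, although the myoglobin gene Mb was higher in stretched skin (1.09, interval 1.02 to 1.17). Of the muscle markers, Myh4 was at 6432 and 271 CPM, whereas Acta1, the largest of them, was at 9034 and 8593 CPM.

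Signaling partners of the receptors were counted by list. Of 11 IL-1 signaling genes none was past 2-fold. Over all symbols 6.32% were at least 2-fold higher and 5.47% at least 2-fold lower, so none is near those shares for so short a list. Intervals lay above 0 for 3 and below 0 for 3, against 18.1% and 33.5% of all symbols, and the median was 0.15. Myd88, the shared adaptor, had 598 counts in control skin against 698 in stretched skin (0.50, interval 0.34 to 0.66), and Traf6, the ubiquitin ligase further down, had 755 and 488 (-0.35, interval -0.52 to -0.18). The 4 Janus kinases had a median of 0.16, with 3 intervals above 0 against 18.1% of all symbols. None was past 2-fold, which is again near the shares of all symbols. Of these, Jak3, which binds the common gamma chain, was at 0.41 (interval 0.18 to 0.65).

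Of 9 IL-6 family cytokines and receptors with other names, 2 were at least 2-fold higher and 1 at least 2-fold lower, against 6.32% and 5.47% of all symbols. Osm, which encodes oncostatin M, had 2 counts in control skin against 23 in stretched skin and passed the count rule there alone, Clcf1 had 70 and 140 (1.28, interval 0.86 to 1.72), and Cntfr had 586 and 236 (-1.03, interval -1.26 to -0.81). Of 7 other partners, 3 were at least 2-fold higher. Csf2rb and Csf2rb2, beta chains that pair with Il3ra and resemble each other closely, had log2 ratios of 1.38 and 1.49, and Ebi3, a subunit of IL-27, had 22 and 44 counts (1.28, interval 0.51 to 2.09).

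Genes known to respond to these cytokines went both ways. Of 10 measured genes that IL-4 and IL-13 induce, 3 were at least 2-fold higher and none 2-fold lower, against 6.32% and 5.47% of all symbols, and 5 intervals lay above 0 and 3 below, against 18.1% and 33.5%. One of the 3, the chemokine gene Ccl17, had 1 and 27 counts and passed the count rule in stretched skin alone. Chil3, the gene of the lectin Ym1, had 31 counts in control skin against 214 in stretched skin (3.07, interval 2.52 to 3.66). Arg1, on the same list, was lower with 216 and 107 counts (-0.73, interval -1.08 to -0.39). Retnla had 879 and 698 counts with an interval that included 0 (-0.20 to 0.09). Of 10 measured genes that IL-17 and IL-22 induce, 4 were at least 2-fold higher and 2 at least 2-fold lower, against the same 6.32% and 5.47%. One of the 4, the chemokine gene Cxcl5, had 1 and 9 counts and passed in stretched skin alone. Intervals of this list lay above 0 for 5 genes and below 0 for 4, against the same 18.1% and 33.5%. S100a8 and S100a9 are also neutrophil markers. S100a8 had 57 and 283 counts (2.59, interval 2.18 to 3.03) and S100a9 had 69 and 187 (1.72, interval 1.31 to 2.14). The 2 lower genes were S100a7a with 317 and 45 (-2.54, interval -3.02 to -2.08) and Ccl20 with 87 and 26 (-1.46, interval -2.15 to -0.82).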

How the data were processed

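RNA was sequenced from 1 library of stretched and 1 library of control whole-layer skin. The authors deposited raw counts of reads per gene symbol, made from 76-base single-end reads after quality filtering (FASTX-Toolkit) and alignment by TopHat2 to the mm10 build. The counter, its annotation and its use of strand are not given in the sources used here. The labels name a TruSeq RNA v2 kit, which does not mark strand, so a gene and its antisense partner cannot be told apart.

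CPM was computed from the total counts (14152379 and 11648655), and FPKM from the union of exons in GENCODE M21, which named all 63 members. Counts of 3 or fewer were set to 3. Ratios carry exact 95% Clopper-Pearson intervals, and FPKM exact Poisson ones. With 1 library per condition no test was run. The interval and the 2-fold threshold were tried on simulated counts drawn with counting error only. Variation between animals or libraries was therefore not tested. Shared stretches are 76-base windows of a gene's transcripts found in another gene's.

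Any member could be named, with full values for those with at least 20 counts and an interval on 1 side of 0 or that define a group, and pathway genes at least 2-fold higher or lower with at least 20 counts. Myd88, Traf6, Jak3, Arg1, Retnla, Cxcl5 and the marker genes named were picked outside this rule, after their values were seen. The members, gene lists and groups were chosen with earlier results of these data known. Alternatives were TMM and upper quartile scaling (edgeR 4.0.16), median of ratios (DESeq2 1.42.0), totals that omit the 50 most counted genes, 1 CPM added, a minimum of 20 counts, no filter, and omission of members with 10% or more shared stretches. Python 3.11.15 with scipy 1.17.1 and R 4.3.3 were used.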

Additional observations from a re-analysis of the deposited data

How the results depend on the processing

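The 17 genes at least 2-fold higher all remained so under the 4 scaling alternatives, and the number lay between 17 and 22. The number was 11 with at least 20 counts per gene and 6 after adding 1 CPM to each value, where the 11 genes lost were mostly of few counts. The number at least 2-fold lower was 4, and it became 2 under each of TMM, upper quartile scaling, median of ratios and 1 CPM added, where Il1a and Il17d fell short of the threshold. With no filter on low counts and 0.5 counts added it was 9. The median of the IL-10 group was -0.0066 with at least 20 counts per gene, over fewer genes. Of 88 values over lists, 80 moved by less than the counting interval of the genes at the median or stayed within 1.5 times the main count. Of 315 values of single genes, 1 changed sign, that of Il1f9, whose interval includes 0. No paired analysis was possible because each condition has a single library and the labels carry no replicate number. For the same reason none was left out. Depth limits the ligands most, with 7 of 22 under 20 counts over both libraries and 15 more at 3 counts or fewer in each.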
